A study of Mus musculus with 6 samples.

Results

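The 10 genes Chga, Chgb, Scg2, Scg3, Vgf, Syp, Snap25, Syt4, Celsr3 and Bdnf encode secretory granule, synaptic, neuronal adhesion and neurotrophin proteins, and are known from other cells as targets of the repressor REST. They were chosen by name, and all 10 were found among the 24341 genes of the deposited expression table. RNA-seq measured them in dissected lungs of C57BL/6 mice at stage E12.5, in 2 groups of 3 libraries. Mutants were Shh-Cre;Sin3a flox/flox and controls were Shh-Cre;Sin3a flox/+, so every embryo carried the Cre recombinase and every control had 1 floxed Sin3a allele. Shh-Cre recombines in the lung endoderm, which forms the epithelium, whereas each library was made from RNA of every lung cell type. The labels do not say whether a library came from 1 embryo or from several, so the p-values measure the spread between libraries.

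REST, also called NRSF, is a zinc finger repressor that binds a bipartite DNA element, RE1, near many neuronal genes in cells that are not neurons. It recruits SIN3 proteins with histone deacetylases through its N-terminal domain, and the CoREST complex of RCOR1, the demethylase KDM1A and histone deacetylases through its C-terminal domain. In the lung, granins and synaptophysin mark pulmonary neuroendocrine cells, which are epithelial, and nerve cells derived from the neural crest. The comparison of genotypes therefore addresses whether these genes differ in lungs in which the floxed SIN3 scaffold gene is targeted in the epithelium.

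The RefSeq promoter windows (GRCm38.p6, 250 bases before to 50 bases after each gene start) held entries for 7 of the 10 genes, in 13 windows, of which 7 belong to Bdnf. The left arm of RE1 was searched as TTCAGCACC and the right arm as GGACAGC, on both strands, and these do not overlap each other. The left arm was in 2 of the 13 windows, those of Scg2 and Celsr3, and in 0.371% of all 32851 windows. The right arm was in 1 of the 13, that of Scg2, and in 6.56% of all windows. The usual arrangement is the left arm, 2 further bases and the right arm. With every letter of the arms matched exactly, it was in 0 of the 13 windows and in 0.00913% of all. In the Scg2 window, chr1:79439977-79440276 on the minus strand, the arms stood side by side with no base between them, on the strand opposite to the gene, from base 237 to base 252 of the window, across the gene start. In the Celsr3 window, chr9:108825795-108826094 on the plus strand, the left arm stood at bases 124 to 132. After 2 further bases, as in the usual arrangement, stood gggcagc. This is 1 letter off the searched right arm, so the exact search did not count it. A match is a description of the letters and not a measured binding site. These windows are shown because they hold the arms, which are in capitals, and bases are counted from the 5′ end:
Scg2: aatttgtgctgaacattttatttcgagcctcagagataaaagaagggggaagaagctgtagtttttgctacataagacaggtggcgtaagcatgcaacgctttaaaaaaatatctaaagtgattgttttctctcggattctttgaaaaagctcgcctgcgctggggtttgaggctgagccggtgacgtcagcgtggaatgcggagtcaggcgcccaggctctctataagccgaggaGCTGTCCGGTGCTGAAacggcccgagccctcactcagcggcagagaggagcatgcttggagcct
Celsr3: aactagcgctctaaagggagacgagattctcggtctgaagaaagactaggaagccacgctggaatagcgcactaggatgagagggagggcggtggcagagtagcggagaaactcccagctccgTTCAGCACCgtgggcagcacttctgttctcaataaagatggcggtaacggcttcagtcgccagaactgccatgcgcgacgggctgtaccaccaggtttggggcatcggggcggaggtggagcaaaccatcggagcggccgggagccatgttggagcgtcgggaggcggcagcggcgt

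Expression is given as FPKM (sequenced fragments relative to transcript length and library depth), in which the authors' table lists 0.01 where no expression was measured. The 10 genes were scarce in both groups. Over the 6 libraries 8 of the 10 had a mean under 1 FPKM, as had 47.6% of all genes in the table. Bdnf had the highest mean, 2.53 FPKM, followed by Syp at 1.08, Snap25 at 0.859, Chga at 0.639 and Scg3 at 0.552 FPKM. Chgb had 0.388, Syt4 0.328, Scg2 0.165, Vgf 0.0751 and Celsr3 0.0696 FPKM. Bdnf was above Syp in 6 of 6 libraries, and Syp above Snap25 in 5 of 6. Further down, each gene was above the next in 2 to 5 of the 6 libraries, so those neighbours were not separated beyond their spread between libraries. REST itself was far from scarce, with Rest between 17.8 and 24.7 FPKM, while the highest value of any of the 10 genes in any library was 3.63 FPKM.

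The number of sequenced fragments behind these values could be estimated, because low FPKM values of genes with 1 transcript fell on steps of a fixed size. The steps gave depths of about 9050000 fragments in mutant library 1, 9480000 in control library 3 and 14400000 to 22700000 in the other libraries. Chgb and Syt4, which have 1 annotated transcript each, came out at 3.0, 10 and 4.0 fragments and at 9.0, 49.6 and 5.0 fragments in control libraries 1 to 3. In mutant libraries 1 to 3 they came out at 4.0, 57.6 and 29.1 fragments for Chgb and at 14.9, 8.9 and 12.0 fragments for Syt4. For the other genes the longest transcript was used, which makes their numbers approximate. Vgf rested on 14.4 fragments over all 6 libraries, Scg2 on 37.3 and Celsr3 on 76.0, against 923.1 for Bdnf. The plot of estimated fragments shows that only Bdnf had more than 73 fragments in every library.

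**Figure D1:**
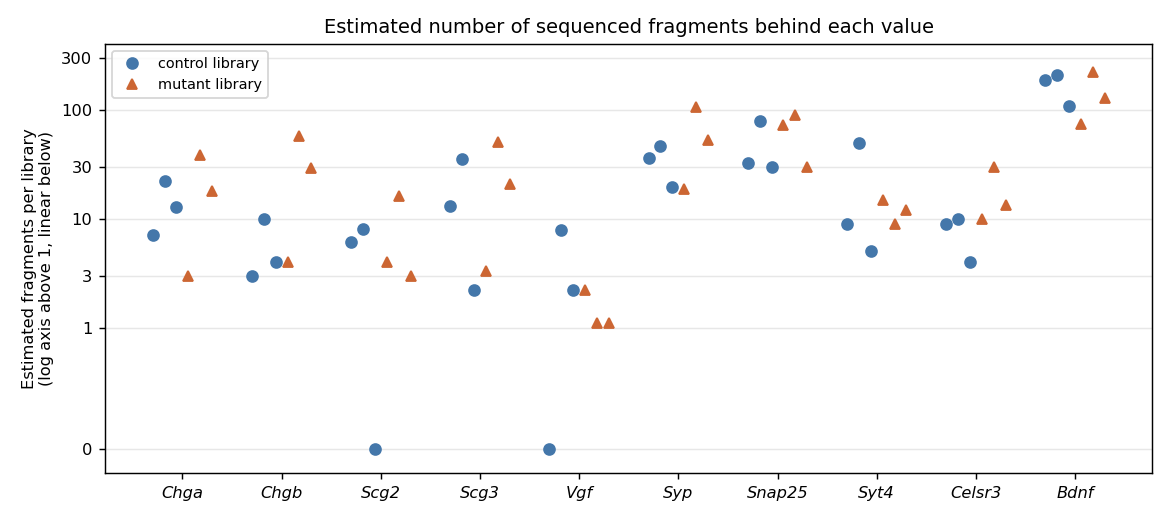
Estimated sequenced fragments (y axis, log scale above 1 and linear below) behind the value of each of the 10 genes (x axis), with 1 point per library, circles for control and triangles for mutant libraries. Bdnf lies between 73.2 and 219.4 fragments, while Vgf and Scg2 each have a library at 0.

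Limma, with Benjamini-Hochberg adjustment over the 12742 genes that averaged 1 FPKM or more, called 0 of the 10 genes higher and 0 lower in the mutant. Only Bdnf and Syp passed that filter, so the count rests on 2 genes, of which 1 (Bdnf) had an unadjusted p under 0.05, as had 23.0% of all tested genes. Of all tested genes 3.34% were called, 1.71% higher and 1.63% lower. With no filter on low values all 10 genes entered the fit, and again 0 were called and 1 had an unadjusted p under 0.05, against 1.29% and 18.6% of 18801 genes. The smallest adjusted p among the 10 was then 0.24, for Bdnf. Lowering the pseudocount to 0.1 in that fit, an alternative chosen after seeing the data, left 0 of 10 called, with adjusted p-values of 0.25 (Bdnf) and above. The groups did not overlap for 1 of the 10 genes, Bdnf, as for 29.5% of tested genes and 24.0% of genes above the floor in any library.

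**Figure D2:**
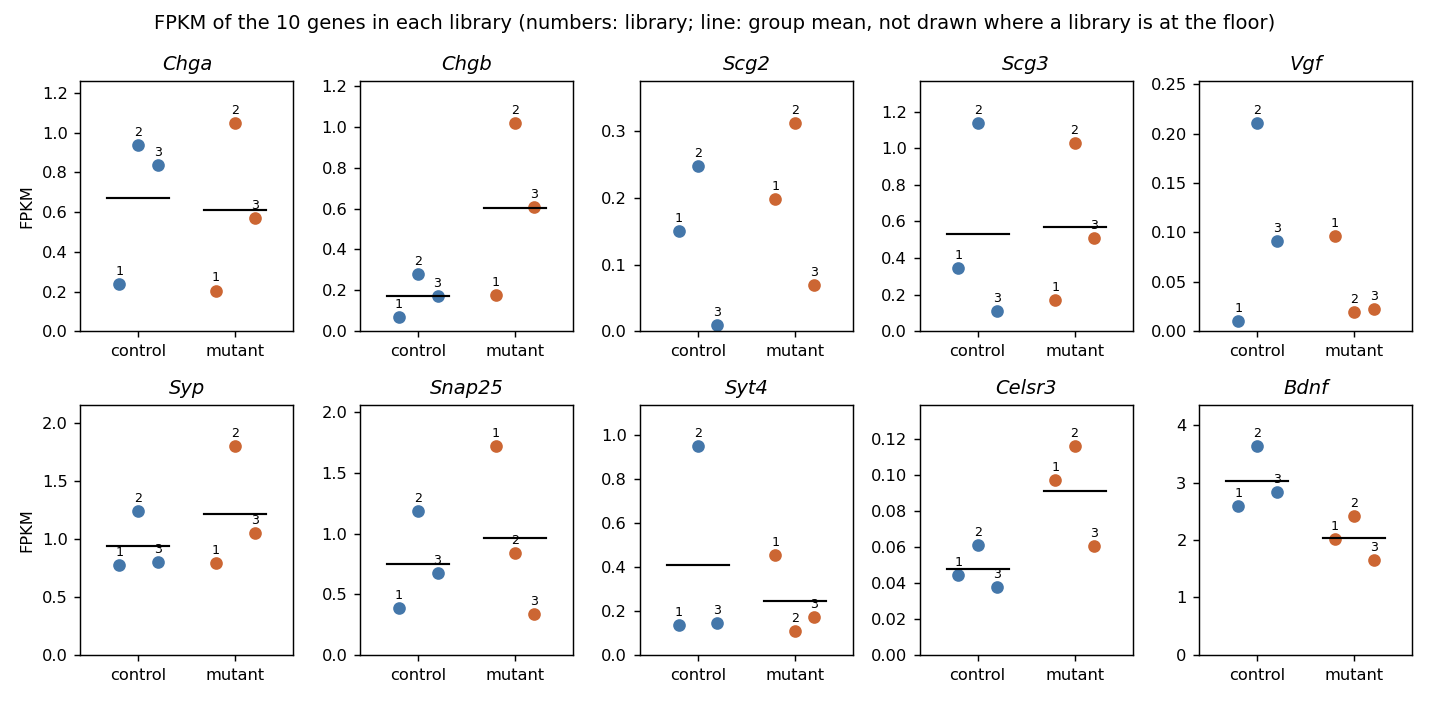
FPKM (y axis, from 0, scaled per gene) of each of the 10 genes in the 3 control and 3 mutant libraries, with the library number above each point and a line at the group mean. In Bdnf alone the groups are apart, with controls from 2.59 to 3.63 FPKM and mutants from 1.66 to 2.41 FPKM.

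Among the granins, the acidic cargo proteins of dense core granules, Chgb showed the largest ratio between the groups. Chgb, which encodes chromogranin B (chromosome 2, 132781278 to 132795072, GRCm38), measured 0.0677, 0.279 and 0.170 FPKM in the controls (libraries 1 to 3) and 0.178, 1.02 and 0.610 FPKM in the mutants (libraries 1 to 3). Mutant libraries 2 and 3 were above every control, while mutant library 1 was below control library 2, so the groups overlapped. The means were 0.172 ± 0.106 and 0.604 ± 0.422 FPKM (SD, n = 3), 3.50-fold higher in the mutant, with an exact permutation p = 0.2 (2-sided, 0.1 being the smallest that 3 against 3 allows). With no filter, limma gave Chgb a log2 change of 0.42 (SE 0.19, 95% interval -0.05 to 0.89, adjusted p = 0.31) on the scale of log2(FPKM + 1), which understates changes of low genes. Without mutant library 2 the difference was 0.24, and without mutant library 1 it was 0.63.

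Chga, which encodes chromogranin A (chromosome 12, 102554969 to 102565027), had 0.240, 0.937 and 0.837 FPKM in the controls and 0.205, 1.05 and 0.571 FPKM in the mutants. Both groups held a low library 1 and a high library 2, and the means, 0.671 ± 0.377 and 0.608 ± 0.422 FPKM, differed by less than either SD (exact permutation p = 0.9, n = 3). Chga and Chgb thus did not move alike in the means, although the difference between the 2 genes was not tested. Scg3, which encodes the granule protein secretogranin III (chromosome 9, 75643366 to 75684056), ranged from 0.108 to 1.14 FPKM among controls and from 0.171 to 1.03 FPKM among mutants. Its means of 0.533 ± 0.543 and 0.572 ± 0.435 FPKM were close beside a 10.6-fold span between control libraries (exact permutation p = 0.8, n = 3).

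Scg2, which encodes secretogranin II, the precursor of secretoneurin (chromosome 1, 79434669 to 79440090), is the gene whose window above holds both arms. It measured 0.150 and 0.248 FPKM in control libraries 1 and 2, was listed at the floor in control library 3, and measured 0.198, 0.313 and 0.0700 FPKM in mutant libraries 1 to 3. The groups overlapped, and the log2 difference of 0.07 (exact permutation p = 0.6, n = 3) was smaller than the pooled SD of 0.15. Vgf, a granin-like neuropeptide precursor gene (chromosome 5, 137030295 to 137033351), was listed at the floor in control library 1 and measured 0.211 and 0.0916 FPKM in control libraries 2 and 3. In mutant libraries 1 to 3 it measured 0.0962, 0.0190 and 0.0226 FPKM. Vgf rested on about 1 to 8 fragments in each library above the floor, and its groups overlapped (exact permutation p = 0.7, n = 3). How large a difference could have been seen at this depth was not tested.

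Syp, Snap25 and Syt4 encode proteins of regulated vesicle release. Syp, the gene of the vesicle membrane protein synaptophysin (chromosome X, 7638580 to 7653256), measured 0.778, 1.24 and 0.803 FPKM in controls and 0.795, 1.80 and 1.05 FPKM in mutants. The groups overlapped, with library 2 the highest in each. Limma gave a log2 change of 0.17 (SE 0.21, 95% interval -0.31 to 0.65, adjusted p = 0.65). Snap25, which encodes a SNARE of the plasma membrane (chromosome 2, 136713450 to 136782428), measured 0.389, 1.19 and 0.676 FPKM in controls and 1.72, 0.843 and 0.334 FPKM in mutants. Its highest and its lowest library were both mutants (exact permutation p = 0.8, n = 3). Syt4, which encodes a synaptotagmin of dense core vesicles (chromosome 18, 31437808 to 31447415), measured 0.138, 0.949 and 0.145 FPKM in controls and 0.454, 0.108 and 0.172 FPKM in mutants. Control library 2 alone held the control mean of 0.411 FPKM above the mutant mean of 0.245 FPKM (exact permutation p = 0.7, n = 3). Without that library the log2 difference of Syt4 went from -0.14 to 0.11.

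Celsr3, which encodes a seven-pass cadherin of axon guidance and planar polarity (chromosome 9, 108826320 to 108852969), had the lowest mean of the 10. It measured 0.0447, 0.0612 and 0.0376 FPKM in control libraries 1 to 3 and 0.0974, 0.116 and 0.0608 FPKM in mutant libraries 1 to 3. Mutant libraries 1 and 2 were above every control, and mutant library 3 lay just under control library 2, so the groups overlapped. The mutant mean was 1.91-fold the control mean (0.0914 ± 0.0281 against 0.0478 ± 0.0121 FPKM, exact permutation p = 0.2, n = 3), and with no filter limma gave an adjusted p of 0.45.

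Bdnf, which encodes brain-derived neurotrophic factor, a ligand of the receptor kinase NTRK2 (chromosome 2, 109674700 to 109727043), was the only gene of the 10 whose groups were apart, and it was lower in the mutant. It measured 2.59, 3.63 and 2.84 FPKM in control libraries 1 to 3 and 2.02, 2.41 and 1.66 FPKM in mutant libraries 1 to 3. The means were 3.02 ± 0.544 and 2.03 ± 0.374 FPKM (SD, n = 3), a control mean 1.49-fold the mutant mean. The log2 change was -0.41 (SE 0.16, 95% interval -0.77 to -0.04, unadjusted p = 0.033, limma adjusted p = 0.18), which did not pass. Over all alternatives its log2 change ran from -0.55 to -0.30 and its adjusted p from 0.15 to 0.43. Bdnf, Syp and Syt4 each overlap an exon of an antisense gene model in GENCODE M21, and reads of the antisense transcripts cannot be told apart in libraries that do not mark strand.

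Library 2 of the control group stood apart for these genes. All 10 had their highest control value in it, where control library 2 was the highest control for 36.9% of genes under the filter. Bdnf and Syp were above the filter, so that share does not cover them or other genes above it. Of 34 other REST target genes, 25 had their highest control value in library 2 too. The 10 values summed to 4.76, 9.90 and 5.72 FPKM in the controls and to 5.94, 8.72 and 5.06 FPKM in the mutants. The highest and the lowest sum were thus both in the control group. Of 20 neuron and neural crest markers, 18 also had their highest control value in library 2, and their summed level was 141 to 207 FPKM in controls and 153 to 197 FPKM in mutants, with 0 of the 20 at the floor in all libraries. Of 11 pulmonary neuroendocrine markers 7 were highest there among controls, and their sum ran from 46.9 to 63.1 FPKM in controls and from 51.0 to 54.4 FPKM in mutants, with Nkx2-2 at the floor in all 6 libraries. In such sums the most abundant genes of a list weigh most. These were Ednrb among the neuron and neural crest markers (control mean 58.2 FPKM), and Uchl1 and Ddc among the neuroendocrine markers (24.5 and 19.1 FPKM). Ednrb measured 52.7, 59.8 and 62.1 FPKM in control libraries 1 to 3, where the sum of its list was 141, 207 and 150 FPKM. The peak of that sum in control library 2 was thus not that of Ednrb. The part of neural crest, nerve and neuroendocrine cells in the level of the 10 genes was not tested. Without control library 2, limma still called 0 of the 2 tested genes, and Bdnf had a log2 change of -0.30 (adjusted p = 0.43).

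**Figure D3:**
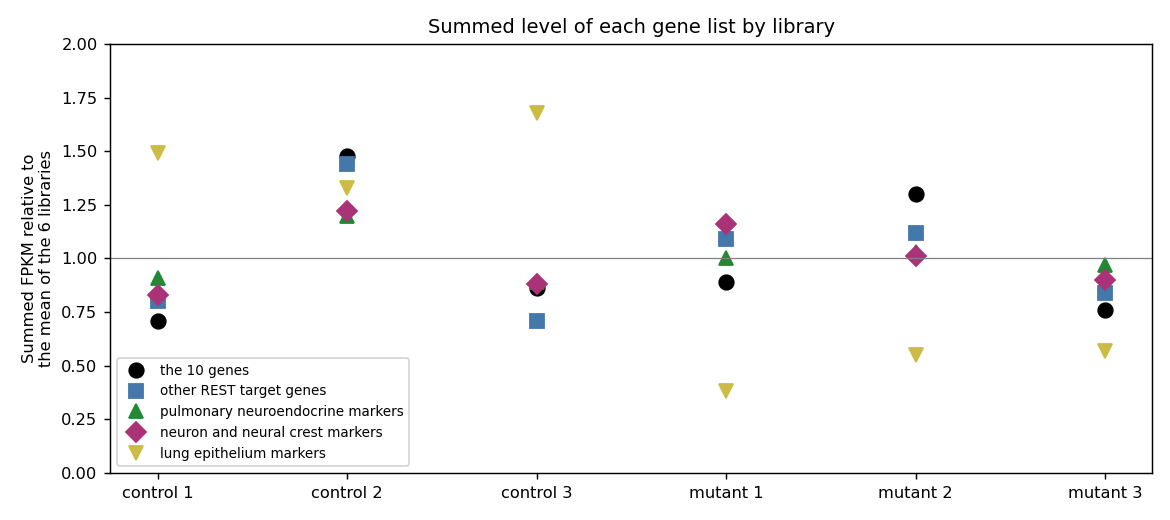
Summed FPKM of 5 gene lists in each of the 6 libraries (x axis), divided by the mean of that list over the 6 libraries (y axis). The 10 genes stand at 1.48 in control library 2 and 1.30 in mutant library 2, and the lung epithelium markers at 1.33 to 1.68 in controls and 0.38 to 0.57 in mutants. Abundant genes weigh most in each sum.

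Most epithelial markers fell in the mutant. None of the 10 genes passed the test, but only 2 of the 10 were above its filter, against 16 of the 16 epithelial markers. Of 16 lung epithelium markers, 10 fell and 0 rose, against 1.63% and 1.71% of all tested genes. Among those that fell were Sftpc, Rab25, Krt8 and Krt18 with log2 changes of -5.11, -2.43, -1.53 and -1.40 (limma adjusted p = 9.06e-06, 5.24e-04, 9.50e-04 and 0.00248). Groups did not overlap in 13 of the 16 (81.2%), against 29.5% of all tested genes. They overlapped in Sox9, Cldn7 and Elf3, named after their values were seen, with log2 changes of 0.02, -0.35 and -0.24 (limma adjusted p = 0.93, 0.58 and 0.36). The summed level of the 16 was 308 to 389 FPKM in controls and 88.5 to 131 FPKM in mutants, and 0 of the 16 were at the floor in all libraries. In whole lungs, fewer cells of a type and less RNA per cell cannot be told apart. Of 12 lung mesenchyme markers, 3 rose (Pdgfra, Col1a2 and Col3a1) and 2 fell (Foxf1 and Wnt2). Of 14 markers of endothelium, leukocytes, erythroid cells and mesothelium, 3 rose (Kdr, Tyrobp and Cx3cr1) and Hbb-y fell, where the same 1.71% and 1.63% of all tested genes rose and fell. The log2 change of Hbb-y was -1.06 (limma adjusted p = 0.045). With quantile normalization it was 0.00, but that setting cannot test this gene. Hbb-y had the highest mean of all genes, and quantile normalization gives genes of equal rank the same value in every library. What part the shifts of all these markers had in the values of the 10 genes was not tested.

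Rest and its corepressor genes were measured well above the filter, and 0 of 17 were called by limma, with 3 at an unadjusted p under 0.05 (Rest, Phf21a and Ctbp2), a share no higher than the 23.0% of all tested genes. Rest measured 19.8, 18.8 and 17.8 FPKM in control libraries 1 to 3 and 22.8, 23.6 and 24.7 FPKM in mutant libraries 1 to 3. All mutants were above all controls, with means of 18.8 ± 0.992 and 23.7 ± 0.996 FPKM, 1.26-fold higher in the mutant. The log2 change of 0.32 (SE 0.09, 95% interval 0.11 to 0.52) had a limma adjusted p of 0.093, which did not pass. After removal of globin and small RNA genes, a scaling that moved the median change of all genes by 0.114, Rest did pass (adjusted p = 0.033), at 0.33 above that median as in the unscaled fit. Phf21a, which encodes a subunit of the CoREST complex, measured 5.58 ± 0.562 and 7.60 ± 0.290 FPKM (log2 change 0.39, adjusted p = 0.095, and 0.037 with that scaling).

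Sin3a was at 18.9 ± 0.479 FPKM in the control and 18.0 ± 1.45 FPKM in the mutant group (adjusted p = 0.68). This value sums all exons over every lung cell, so it is no check of the genotypes. The related scaffold gene Sin3b had an adjusted p of 0.68 as well. Kdm1a, the demethylase gene of CoREST, measured 51.2 ± 3.41 and 51.5 ± 2.90 FPKM (adjusted p = 0.97), and Rcor1, its scaffold gene, 15.0 ± 0.660 and 17.6 ± 1.69 FPKM (adjusted p = 0.26). The deacetylase genes Hdac1 and Hdac2 had log2 changes of -0.13 and -0.34 (adjusted p = 0.54 and 0.30). Groups did not overlap in 6 of the 17 genes (35.3%), near the 29.5% of all tested genes, and the median log2 change of the 17 was 0.01, against -0.01 over all tested genes.

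**Figure D4:**
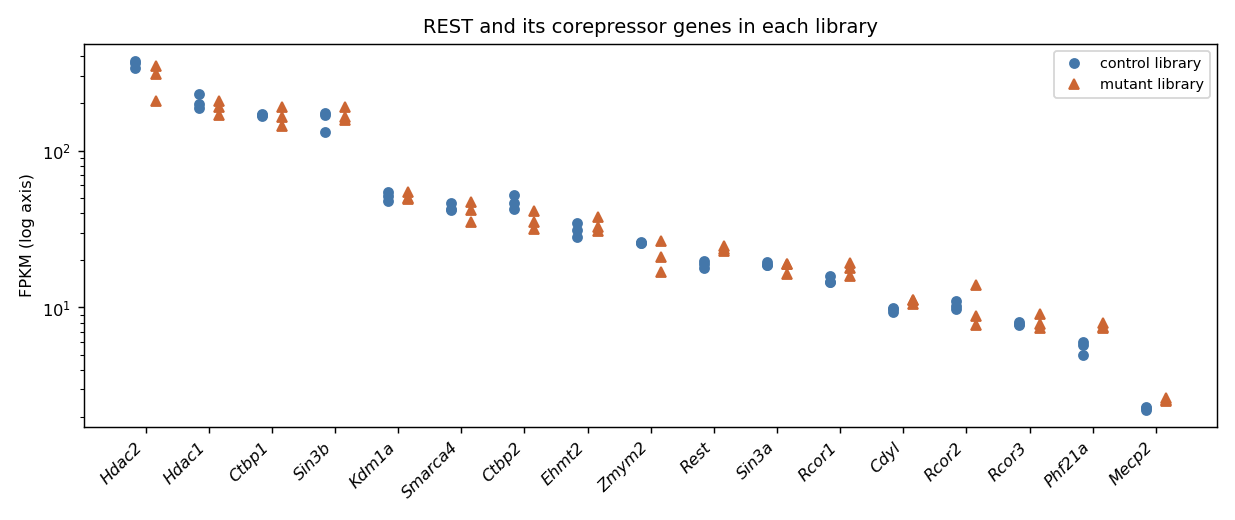
FPKM (y axis, log scale) of Rest and 16 corepressor genes, ordered by mean, with circles for the 3 control and triangles for the 3 mutant libraries. Rest lies between 17.8 and 19.8 FPKM in controls and between 22.8 and 24.7 FPKM in mutants, and Sin3a overlaps between the groups.

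Other genes known as REST targets were scarce as well, with 22 of 34 under the filter. Of the 12 tested, 1 rose and 0 fell, against 1.71% and 1.63% of all tested genes. The median log2 change of the 12 was 0.02, against -0.01 over all tested genes. With no filter, 1 of 34 was called, against 1.29% of 18801 genes. The call among the 12 was lost without control library 1, 2 or 3 or without mutant library 2. Groups did not overlap in 4 of the 34 (11.8%), against 24.0% of all genes above the floor. Among these were Scamp5, a vesicle protein gene at 4.68 ± 0.262 and 6.09 ± 1.08 FPKM (adjusted p = 0.22), and Rab3c and Crh, named after their values were seen. Rab3c and Crh were lower in the mutant, at 0.421 ± 0.0484 against 0.182 ± 0.0327 FPKM and at 0.621 ± 0.317 against 0.143 ± 0.0594 FPKM (no filter, limma adjusted p = 0.065 and 0.14). Stmn2, an axonal tubulin regulator gene and a neuron marker, measured 10.5 ± 3.84 and 10.6 ± 4.02 FPKM.

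Genes that work beside the 10 in granules and vesicles were mostly measurable, and limma called 0 of them. Of 9 tested granule and prohormone processing genes 0 were called and 2 had an unadjusted p under 0.05, a share near that of all tested genes (23.0%). These were Pam, which encodes the enzyme that amidates peptides (14.0 ± 3.76 and 21.9 ± 1.75 FPKM, adjusted p = 0.11), and Cadps2, a vesicle priming gene (1.77 ± 1.07 and 3.17 ± 0.195 FPKM, adjusted p = 0.17). Pam passed after removal of globin and small RNA genes. Of 15 tested genes of synaptic vesicle release 0 were called and 3 had an unadjusted p under 0.05, again near the share of all tested genes. Their median log2 change was 0.04, against -0.01 over all tested genes. Vamp2, the vesicle SNARE gene, measured 15.8 ± 2.39 and 21.9 ± 1.84 FPKM (log2 change 0.45, adjusted p = 0.099), and Dnm1, a dynamin gene of vesicle recycling, 9.93 ± 0.798 and 13.1 ± 1.73 FPKM (adjusted p = 0.13). Vamp2 passed with that same scaling.

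Of 19 tested paralogs of the 10 genes, neurotrophins and neurotrophin receptors, limma called 0, with 4 at an unadjusted p under 0.05 (23.0% of all tested genes were) and a median log2 change of -0.08, against -0.01 over all tested genes. Synpr, which encodes the synaptophysin relative synaptoporin, measured 1.23, 0.965 and 1.25 FPKM in controls and 3.40, 2.20 and 1.62 FPKM in mutants, without overlap (adjusted p = 0.13). Syngr2, a synaptogyrin gene, measured 39.4 ± 4.99 and 50.7 ± 3.20 FPKM (adjusted p = 0.12, under 0.05 after that removal). The neurotrophin gene Ntf3, also with an unadjusted p under 0.05 and named after its values were seen, had a log2 change of -0.41 (adjusted p = 0.13), in the same direction as Bdnf.

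Of 4 tested pulmonary neuroendocrine markers limma called 0, with 1 at an unadjusted p under 0.05, against 23.0% of all tested genes. That was Ddc, a decarboxylase gene of amine synthesis, at 19.1 ± 1.71 and 23.5 ± 0.513 FPKM (adjusted p = 0.13), while Uchl1 measured 24.5 ± 6.25 and 19.6 ± 1.10 FPKM (adjusted p = 0.38). Of 17 tested neuron and neural crest markers 1 rose and 0 fell, against 1.71% and 1.63% of all tested genes. The gene that rose was Gfra1, a GDNF receptor gene, from 14.7 ± 1.90 to 24.0 ± 2.23 FPKM (limma adjusted p = 0.0338). That call ended without control library 1, 2 or 3 (adjusted p = 0.12, 0.067 and 0.12), without mutant library 2 or 3 (0.12 and 0.052) and with no filter (0.055). The other with the smallest p was Erbb3, a glial receptor gene, at 5.08 ± 1.45 and 3.32 ± 0.855 FPKM (adjusted p = 0.25).

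**Figure D5:**
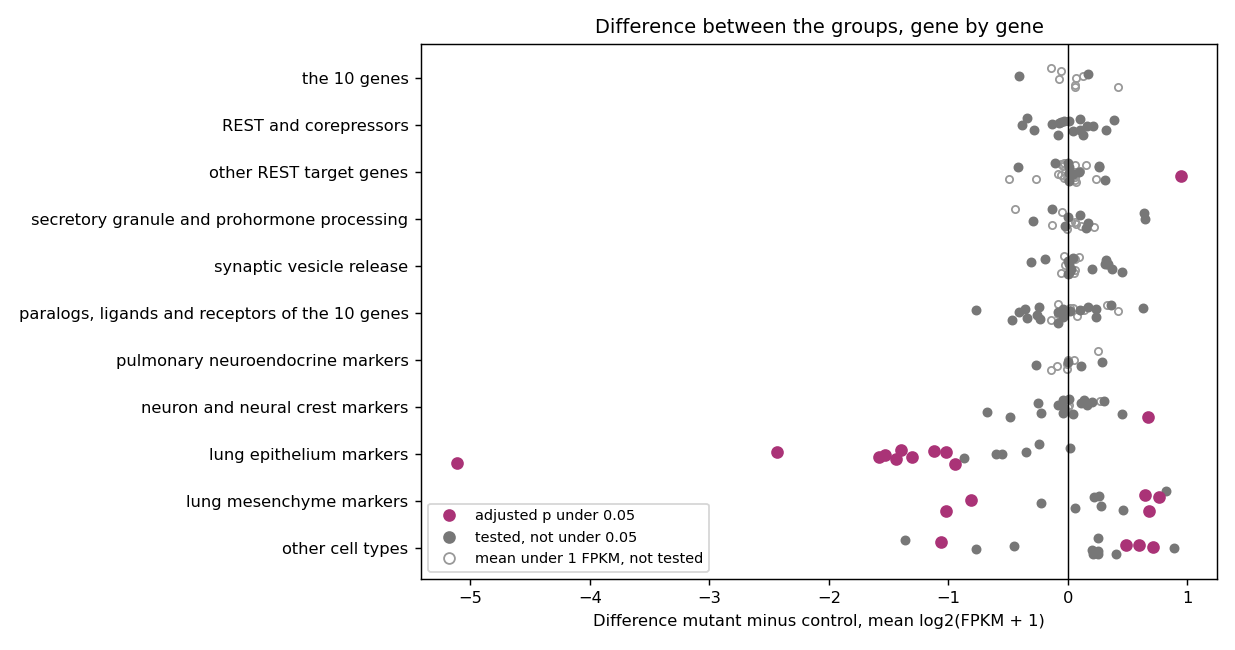
Difference between the groups in mean log2(FPKM + 1), mutant minus control (x axis), with 1 point per gene, by gene list (y axis). None of the 10 genes is among the coloured points of called genes, and the 10 range from -0.41 (Bdnf) to 0.42 (Chgb), while the lung epithelium list reaches -5.11 (Sftpc).

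The genes most like the mean standardized profile of Bdnf and Syp, the 2 tested genes of the 10, were Gpd2, Rdh12 and Afp, with Pearson's r of 0.983, 0.967 and 0.960 over the 6 libraries. These are the highest of 11973 values, so they describe these libraries only. Each was highest in library 2 of each group, as Bdnf and Syp were, which their choice by likeness made likely.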

How the data were processed

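RNA-seq libraries of E12.5 lungs, 3 control and 3 mutant, were prepared by SMARTer Ultra Low Input chemistry and read as 75 bp pairs, per the labels' protocols. This chemistry does not mark strand. The authors deposited FPKM per gene, made with TopHat, Bowtie2 and Cufflinks on mm10 (GRCm38), per the submitters' processing notes. Tool versions and the annotation: not given in the sources used here. A failure mark in mutant library 1 removed 3 genes.

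Genes averaging at least 1 FPKM were tested as log2(FPKM + 1), by limma 3.58.1 (R 4.3.3) with an intensity trend, 2-sided, Benjamini-Hochberg adjusted, with a threshold of 0.05. The test was also run on simulated data, with means and spreads taken from these libraries. Exact permutation tests of log2(FPKM + 1) were 2-sided. Depth was estimated after seeing the data from values up to 0.3 FPKM of genes with 1 GENCODE M21 transcript of at least 1500 bp, less 260 bp of fragment length. Of values up to about 3 fragments, 87.0% to 92.6% were within 0.2 of a whole number. The step sizes and the 260 bp were chosen to bring these same values close to whole numbers, so that share is no independent check. Loci are those of the table, counted from 1. Python 3.11.15, scipy 1.17.1 and matplotlib 3.10.9 were used.

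Named were the 10 genes, Rest, Rcor1, Kdm1a, Hdac1, Hdac2, Sin3a and Sin3b. From each other list came up to 4 called genes, or the 2 with the smallest p where fewer than 2 were called, and then the 3 genes most like the tested ones in profile. The genes, lists and tests were chosen with earlier results of these data known. The lists share 10 genes with each other. The values of some genes counted in the lists are not reported here. Alternatives were other pseudocounts, filters, scalings, variance settings, a threshold of 0.1, a replicate block and leaving out each library.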

Additional observations from a re-analysis of the deposited data

How the results depend on the processing

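None of the 10 genes was called under any alternative that tested them. With a mean of at least 5 FPKM none of the 10 was left, so that setting gave no value, and without mutant library 2 only Bdnf was tested. Of all genes, 426 were called, 218 higher and 208 lower (48.8% lower). The count was 242 with no filter, 1138 at an adjusted p under 0.1 and 1014 after removal of globin and small RNA genes (841 higher and 173 lower, 17.1% lower), and 58 to 826 with 1 library left out. It was 58, 62, 65 and 59 without mutant library 2 and control libraries 1, 2 and 3, and 826 without mutant library 1. No pairing by replicate number was seen: deviations of same-numbered libraries correlated at -0.089, -0.078 and -0.026, and no library correlated best with its own number. Whether same-numbered libraries were prepared together cannot be told from these values. A replicate block gave 52 calls of all genes, 0 other REST targets, 0 neuron markers, 5 epithelial, 2 mesenchymal and 0 markers of other cell types. After that removal, calls were 2 for REST and corepressors and 1 each for granule, vesicle release and paralog lists. At an adjusted p under 0.1 they were 2 for REST and corepressors and 1 for vesicle release. A mean of at least 5 FPKM left 0 called other REST targets and 6 epithelial markers. With no filter 0 neuron markers and 0 markers of other cell types were called, and 2 of the latter with quantile normalization and with no intensity trend. With 1 library left out, calls ranged from 0 to 1 for other REST targets, 0 to 1 for neuron markers, 4 to 10 for epithelial, 2 to 7 for mesenchymal and 0 to 5 for other cell types. The change of Hbb-y, -1.06, went to 0.00 with quantile normalization, which cannot test the gene with the highest level. Hbb-y was called in 6 of 15 alternatives, that setting included in the 15. Genes near 0 that changed sign were Hdac1 (0.02 with quantile normalization and 0.00 after that removal), Sin3a (0.05), Gpd2 (0.05) and Rdh12 (0.04) after it, Kdm1a (-0.04 without control library 1 and -0.04 without mutant library 1), Sin3b (-0.02 without control library 3), and Afp and Rdh12 (0.03 and 0.00 without control library 2). With 1 library left out, Sin3b ran from -0.02 to 0.18, Kdm1a from -0.04 to 0.05, Afp from -0.37 to 0.03 and Rdh12 from -0.10 to 0.00. Apart from Hbb-y with quantile normalization, the cause of these changes was not tested.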
